A study of Triticum turgidum subsp. durum with 8 samples.

Results

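The comparison described here asks what the parents' stress left in the microRNAs (miRNAs) of unstressed and N-starved progeny of L6, an Australian durum wheat genotype that is sensitive to water-deficit and heat (WH) stress. Small RNA was sequenced from pooled shoots of 6 seedlings a library at 3 weeks of age. L6CG_C and L6CG_N are progeny of control parents (CG), and L6WH_C and L6WH_N are progeny of WH-stressed parents. Libraries ending in _C were given the complete nutrient solution and those ending in _N the same solution without nitrogen, in sand with CaCO3 under the same glasshouse conditions. The WH stress was given to the parents only. The other 4 of the 8 libraries of the series are the same treatments of DBA Aurora, a WH-tolerant genotype, and are used here to share the estimate of spread and to test differences between genotypes. The members are the 611 of 1473 distinct miRNA sequences with a mean normalised reads count of 10 or more over the 4 L6 libraries, and L6WH was set against L6CG within each progeny treatment. Of the 611, 554 were above 0 in all 4 L6 libraries. At the threshold, tae-miR9666a-3p had a mean of 9.9994 and was left out, and tae-miR9783_L+3_2ss7AG20AC had a mean of 10.002 and was kept. The tables hold miRNAs only, so the shoot label could not be checked against marker genes.

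A miRNA is a short RNA cut from a hairpin transcript. Loaded into an ARGONAUTE protein, it pairs with messenger RNAs of matching sequence, which are then cleaved or translated less. In plants many conserved families each act on a few transcription factors or nutrient genes. miR156 and miR172 set the juvenile to adult phase change, miR164 acts on NAC factors, miR396 on growth-regulating factors and miR160 on auxin response factors. miR169 (NF-YA factors), miR399 (the phosphate regulator PHO2), miR395 (ATP sulfurylases) and miR827 (SPX-domain genes) are tied to nutrient supply. Entries are named after the closest miRBase miRNA: L and R give bases gained or lost at the 5′ and 3′ end, ss gives substitutions, and p5 or p3 marks the arm of a hairpin.

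The sequences below are a selection of those named in the text. Some left out, such as bdi-miR5062a_1ss22CA and osa-miR171b_R+4, differed more between L6WH and L6CG within a progeny treatment. The selected sequences are printed 5′ to 3′ as deposited, as DNA letters, with the seed (bases 2 to 8) in capitals. The first group was lower in the L6WH library with complete nutrients and higher without N, the second was the reverse, and the last was lower in both.
sbi-miR1432: cTCAGGAGagatgacaccgac
ata-miR1432-5p_L+1R-1: aTCAGGAGagatgacaccgac
osa-miR1432-5p_L-1R+1: tCAGGAGAgatgacaccgaca
bdi-miR169c-3p_L+1_2ss6GA13CT: cGGCAAGTtgtctttggctac
ata-miR164b-5p: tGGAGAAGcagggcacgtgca
osa-miR827_1ss1TG: gTAGATGAccatcagcaaaca
osa-miR827: tTAGATGAccatcagcaaaca
tae-MIR9774-p5: gACAGAAAtacccaatatcttgct
lus-miR159b_R+1_1ss21CT: tTTGGATTgaagggagctcttt
gma-MIR5368-p5_2ss1TC21TC_1: cCCTGGGAttggctttgggcct
sbi-miR1432 and ata-miR1432-5p_L+1R-1 share their seed and differ in their first base, while osa-miR1432-5p_L-1R+1 starts 1 base further in. The 2 miR827 forms likewise share a seed and differ in their first base.

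Only 7 of the 611 sequences passed the library thresholds given below in the same direction in both L6 pairs, and 25 passed in opposite directions. In all counts of sequences, those with identical values in all 8 libraries are counted separately (544 distinct sets of values among the 611). A pair here is an L6WH library against the L6CG library of the same progeny treatment, and log2 differences are of the normalised reads count plus 1. The median over all 611 sequences was −0.06 with complete nutrients and −0.05 without N. Between those pairs, which share no library, the differences had a Pearson r of −0.20 and a Spearman rho of −0.25 across sequences, given as a description since sequences are not replicates and the libraries share their normalization. With 234 sequences at a mean of 100 or more the values were −0.28 and −0.38. By sign, 168 sequences were lower with complete nutrients and higher without N, 166 the reverse, 154 lower in both and 108 higher in both. With the libraries scaled to equal totals these numbers were 124, 252, 111 and 109. The plot of one pair against the other shows that the sequences farthest from 0 lie mainly off the diagonal of equal change.

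**Figure D1:**
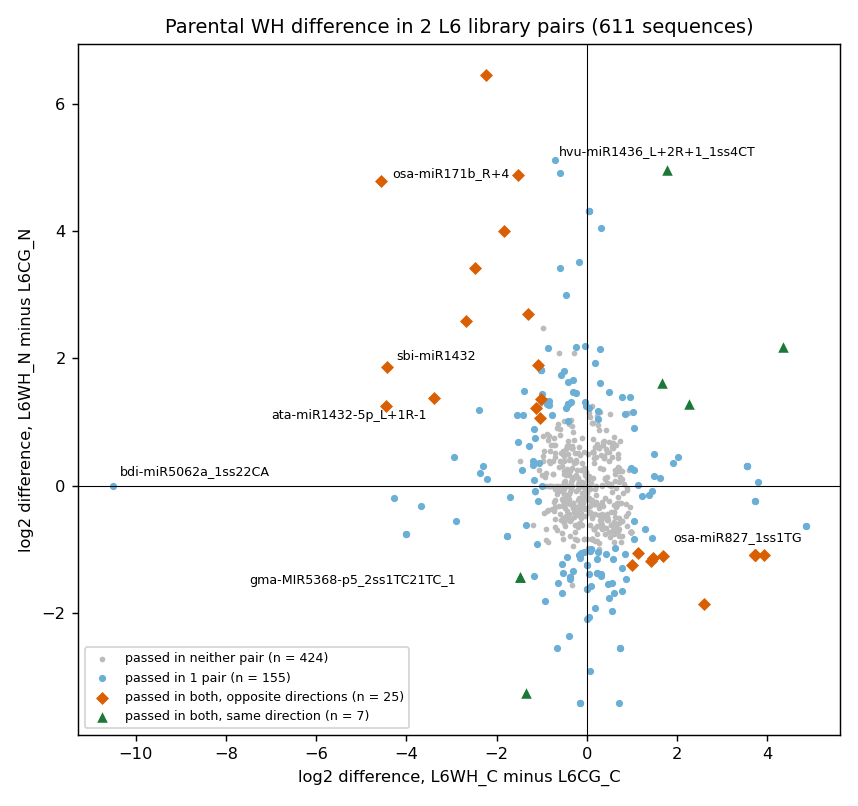
Log2 difference between WH and CG progeny of L6 for 611 sequences, with complete nutrients on the x axis and without N on the y axis, each point 1 sequence coloured by whether it passed Fisher's exact test and a log2 ratio past 1 in each library pair. The 25 that passed in opposite directions lie in the upper left and lower right, and 7 passed in the same direction.

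No sequence passed the test of a common parental effect. limma, fitted to log2 values of all 8 libraries with the progeny treatment as the pair, called 0 of 611 sequences at an adjusted p under 0.05, which is 0% of those tested, with 12 at an unadjusted p under 0.05 and a smallest adjusted p of 0.997. The standard error of a log2 difference had a median of 0.50. Among families whose summed count averaged at least 10 (105 in all), none was called by limma (0%, 1 at an unadjusted p under 0.05, smallest adjusted p 0.973). For a single sequence, an exact permutation test of 2 libraries against 2 that ignores the pairing cannot give a 2-sided p below 0.333. Within pairs fewer rearrangements exist, and the limit is higher. In each condition 1 library was made, so these p-values do not measure a spread between replicates. Their spread comes from how far the pairs of each genotype disagree, pooled in part over sequences. Opposite differences in the pairs therefore both cancel in the mean and widen its standard error.

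The thresholds of the study's methods (here Fisher's exact test with p under 0.05 and a log2 ratio past 1) compare libraries, not conditions, and carry counting error only. With complete nutrients they passed 40 sequences as higher in L6WH_C (6.55% of those tested) and 48 as lower (7.86%), 14.4% in all. Without N they passed 64 as higher in L6WH_N (10.5%) and 67 as lower (11.0%), 21.4% in all. At equal totals the split was 82 higher and 32 lower with complete nutrients, and 59 higher and 92 lower without N. In opposite directions in the pairs were 25 sequences (4.09%), of which 14 were lower with complete nutrients and 11 higher. In the same direction were 7 (1.15%), of which 4 were higher. L6WH_C and L6WH_N were also the deeper library of each pair, at 1493220 and 2305750 estimated miRNA reads against 1214010 and 1368760, so that 1 read is worth 0.718 and 0.649 there and 1.08 and 0.975 in L6CG_C and L6CG_N. Of the sequences passed as higher, 15 and 13 were listed at 0 in the L6CG library, against 7 and 4 of those passed as lower in the L6WH library. The part of depth in these counts was not tested.

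miR1432, which targets EF-hand calcium-binding genes in rice, showed the largest contrast between the pairs among family totals (log2 4.63), although single sequences of other families exceeded it. Its 6 sequences summed to 10455 in L6CG_C and 971 in L6WH_C, and to 2421 in L6CG_N and 5557 in L6WH_N. The total was thus lowest in progeny of WH parents with complete nutrients and the order turned without N, with log2 differences of −3.43 (95% interval from counting alone −3.51 to −3.35) and 1.20 (1.13 to 1.26). Most of it was ata-miR1432-5p_L+1R-1, at 7417, 706, 1712 and 4455 in L6CG_C, L6WH_C, L6CG_N and L6WH_N. sbi-miR1432, at 1881, 86.2, 70.2 and 258, was 21.8-fold lower in L6WH_C and 3.67-fold higher in L6WH_N. osa-miR1432-5p_L-1R+1, shifted by 1 base, went the same way at 666, 29.4, 187 and 448. The opposite arm behaved otherwise without N, where ata-miR1432-3p stood at 451 in L6CG_N and 396 in L6WH_N, though it was also lower in L6WH_C (149 against 485 in L6CG_C). All 4 tested members of the calcium list were passed as lower with complete nutrients (7.86% over all sequences) and 3 as higher without N (10.5%). limma called 0 of the 4.

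Since opposite differences cancel in the mean, the difference between the pairs was tested in a fit added after the data were seen, in which the spread comes from DBA Aurora alone (1 residual degree of freedom). limma called 0 of 611 sequences (54 at an unadjusted p under 0.05, smallest adjusted p 0.443) and 49 after quantile normalization. For ata-miR1432-5p_L+1R-1 the pairs differed by log2 4.77 (SE 1.65, limma unadjusted p = 0.076, adjusted p = 0.580).

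**Figure D2:**
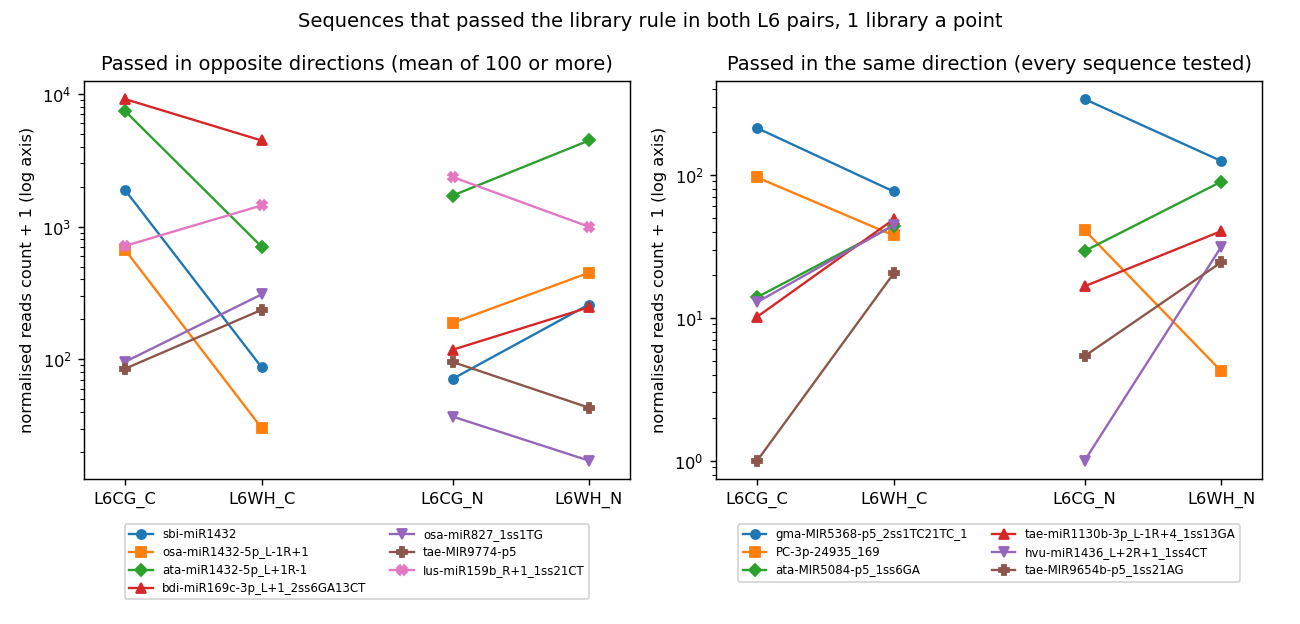
Normalised reads count plus 1 (log axis) in each L6 library of the 7 sequences at a mean of 100 or more that passed the library thresholds in opposite directions (left) and of all sequences that passed in the same direction (right, those with the same values drawn once), with lines joining the CG and WH library of a progeny treatment. The 3 miR1432 forms fall steeply on the left and rise on the right of the same panel.

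Several families of phase change, leaf growth and auxin response had the signs of miR1432 at smaller size, while miR531, miR394, miR159, miR165, miR171 and miR319 did not. These signs were common. Of the 105 families tested, 34 were lower with complete nutrients and higher without N, 32 the reverse, 21 higher in both and 18 lower in both. miR164, of which 7 sequences were summed, was at 28109 in L6CG_C, 15754 in L6WH_C, 14714 in L6CG_N and 34496 in L6WH_N. It was lower in L6WH_C than in L6CG_C (log2 −0.84, not past 1) and higher in L6WH_N than in L6CG_N (1.23, past it), and its difference between the pairs had the lowest p among families (2.06, SE 0.29, limma unadjusted p = 0.0048, adjusted p = 0.378). ata-miR164b-5p made up most of it, at 21675, 11848, 10159 and 24818 in the same order of libraries. The values of WH and CG progeny overlapped, since the highest and the third highest of these are from WH parents.

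miR396, the most abundant family, was at 260913 in L6CG_C, 166648 in L6WH_C, 300739 in L6CG_N and 445435 in L6WH_N. The log2 differences were −0.65 and 0.57, and after quantile normalization that without N was 0. osa-miR396e-5p alone was at 178913, 109343, 251725 and 391698, and in L6WH_N it held 26.2% of all miRNA counts against 18.9% in L6CG_N. ata-miR396c-5p, a form of another seed in the same family, was at 62421, 36116, 19699 and 30588. The values of both forms therefore had the same sign in each pair, while their order across progeny treatments was reversed.

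Further families were lower with complete nutrients and higher without N under all 5 scalings. In the deposited values 34 of the 105 families had these signs. miR166, which targets HD-ZIP III genes, had log2 differences of −0.58 and 0.47, and ata-miR166a-3p stood at 20989, 12582, 16290 and 25311. miR160 had −0.68 and 0.49, and its most abundant form osa-miR160f-5p stood at 3804, 2339, 6175 and 8842. miR156, which targets SPL factors, had −0.67 and 0.40, and miR172, which targets AP2-like factors, −0.37 and 0.47, so that both of these families, known to run in opposite courses through development, had the same sign here. miR530 had −0.90 and 1.11, with tae-MIR530-p5 at 1420, 743, 158 and 399. The counting intervals of each of these totals exclude 0 on both sides. limma called none of them for a common parental effect.

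By list, the 15 tested phase change sequences had medians of −0.59 with complete nutrients and 0.41 without N, beside −0.06 and −0.05 over all sequences. Of them, 4 were passed as lower in L6WH_C, 3 as higher in L6WH_N and none in the other direction. The 3 that passed as higher were bdi-miR156b-5p_R+4, gma-miR156a_L+1R+2 and mes-miR156a_L+1R+3, which end in CCA and belong also to the CCA group below. Of these 3, 2 were also passed as lower in L6WH_C. Over all 611 sequences, 6.55% passed as higher and 7.86% as lower in L6WH_C, and 10.5% and 11.0% in L6WH_N. bdi-miR156b-5p stood at 5089, 3036, 4086 and 5315 in L6CG_C, L6WH_C, L6CG_N and L6WH_N, and the 3p strand bdi-miR156h-3p at 2529, 1533, 889 and 1499. Both fell short of the thresholds in each pair. The 28 auxin sequences (miR160, miR167, miR390, miR393) had medians of −0.19 and 0.08, which turn to 0.10 and −0.09 at equal totals. Of these, 1 was lower in L6WH_C and 2 higher in L6WH_N. The 62 leaf, meristem and flower sequences had medians of −0.19 and −0.14, of which the first turns to 0.10 at equal totals, with 4 higher and 4 lower in L6WH_C and 8 higher and 3 lower in L6WH_N. The miRNA pathway list holds both strands of miR168, which targets ARGONAUTE1. osa-miR168a-5p was at 127675, 104606, 85874 and 140531 and osa-miR168a-3p_L-3 at 96285, 86379, 161209 and 131126, and neither passed in a pair. The auxin counts lay below the shares over all sequences, and the leaf counts in L6WH_C near them. limma called 0 of the members of each of these lists.

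**Figure D3:**
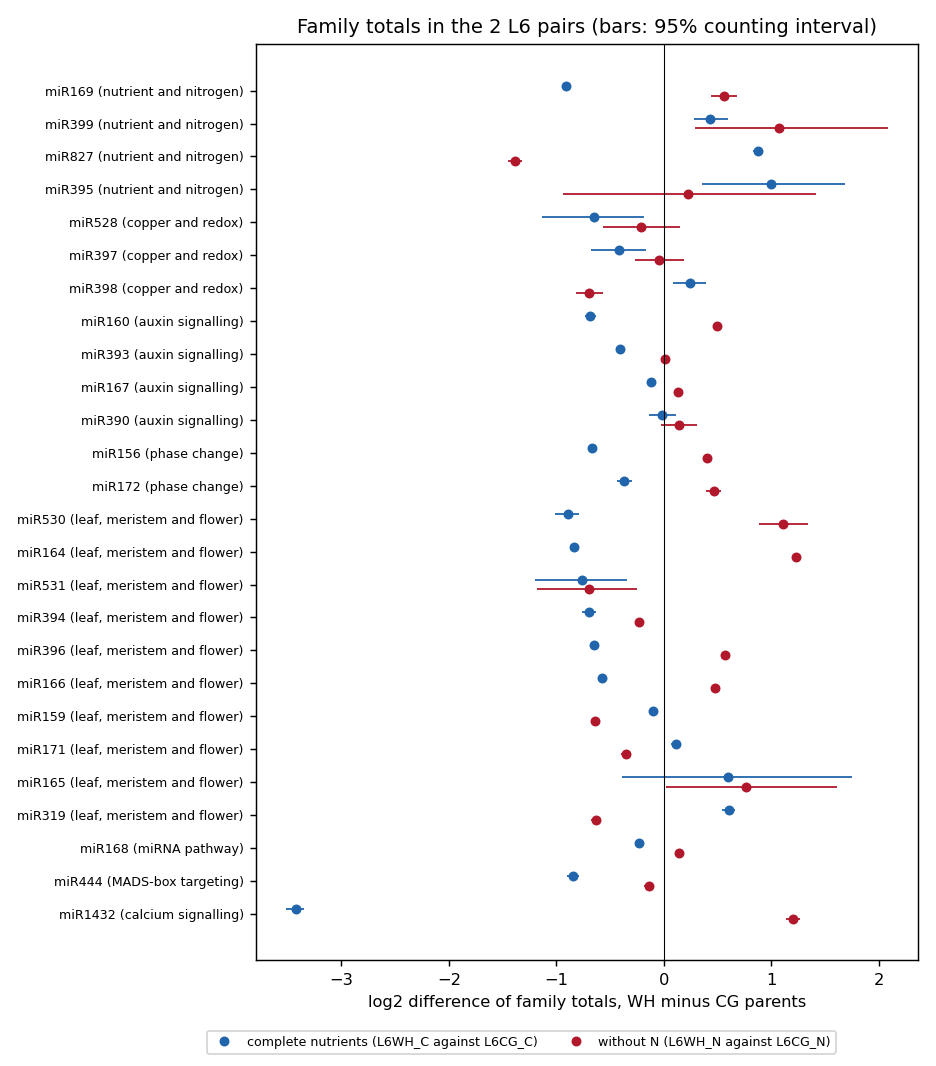
Log2 difference of family totals between WH and CG progeny of L6 for the 26 tested families of the nutrient, copper, auxin, phase change, leaf, pathway, MADS-box and calcium lists, with complete nutrients in blue and without N in red, and bars giving the 95% interval from counting alone. miR1432 lies at −3.43 and 1.20, and miR827 at 0.88 and −1.38.

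Nutrient families differed in sign from each other. The miR827 total was 5731 in L6CG_C, 10528 in L6WH_C, 5219 in L6CG_N and 2001 in L6WH_N. It was highest and lowest in WH progeny, with CG progeny between, and log2 differences of 0.88 (0.83 to 0.92) and −1.38 (−1.45 to −1.32). osa-miR827 was at 5412, 9906, 5089 and 1836. Its variant osa-miR827_1ss1TG, at 94.8, 307, 36.1 and 16.2, passed in opposite directions in the pairs. The rarer 5p strand differed from both: bdi-miR827-5p was at 134, 198, 45.8 and 70.1, higher in WH progeny of both pairs (0.56 and 0.60), without passing in either.

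miR169, far lower without N than with complete nutrients in L6, was at 30863 in L6CG_C, 16412 in L6WH_C, 766 in L6CG_N and 1130 in L6WH_N. Its members differed in sign. bdi-miR169c-3p_L+1_2ss6GA13CT, at 9136, 4455, 117 and 245, passed as lower with complete nutrients and higher without N, and ata-miR169f-3p_R-1, at 6258, 2789, 367 and 683, had the same signs (−1.17 and 0.90). ata-miR169a-3p, at 6073, 2699, 7.80 and 2.27, was lower in WH progeny of both pairs (mean log2 difference −1.30, SE 0.32, limma unadjusted p = 0.0093, adjusted p = 0.997), but the value without N rests on a few reads, and its counting interval of −3.77 to 0.31 includes 0. miR399 totals were 520, 702, 14.9 and 32.5, higher in WH progeny in both pairs (0.43 and 1.07) and past the thresholds without N. miR395 totals were 28.6, 58.0, 10.5 and 12.4, past the thresholds with complete nutrients. Of the 32 tested nutrient sequences, 1 was passed as higher and 5 as lower with complete nutrients, and 3 as higher and 6 as lower without N. Over all sequences the shares were 6.55% and 7.86% with complete nutrients, and 10.5% and 11.0% without N. The 32 nutrient sequences had medians of −0.55 and 0, and limma called 0.

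The 10 copper and redox sequences (miR397, miR398 and miR528) had medians of −0.44 and −0.16. The only one to pass was tae-MIR398-p5, the strand opposite mature miR398, at 138, 124, 664 and 309, lower in L6WH_N than in L6CG_N (log2 −1.10). limma called 0 of the 10.

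Other families had the signs of miR827, which 32 of the 105 families tested had. miR9774 was at 4354 in L6CG_C, 8317 in L6WH_C, 1148 in L6CG_N and 823 in L6WH_N, and its p5 strand tae-MIR9774-p5, at 84.1, 235, 94.6 and 42.2, passed in opposite directions. miR1878 went from 1956 to 3370 with complete nutrients and from 2547 to 1034 without N. miR319, which targets TCP factors, went from 3141 to 4770 and from 9412 to 6071, while for the related GAMYB-targeting miR159 only lus-miR159b_R+1_1ss21CT (715, 1442, 2365 and 997) passed in opposite directions at a mean of 100 or more. miR9664 differed only with complete nutrients, from 2805 to 6232, against 2787 and 2712 without N. Over the 146 sequences of Triticeae families (137 sets of values) the medians were 0.07 and −0.13. Of the 146, 12 passed as higher and 3 as lower in L6WH_C, and 17 as higher and 20 as lower in L6WH_N. limma called 0 of them. Shares over all sequences were 6.55% higher and 7.86% lower in L6WH_C, and 10.5% and 11.0% in L6WH_N.

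A small set passed in the same direction in both pairs. On family totals the same thresholds passed 7 of 105 families with complete nutrients (6.67%) and 14 without N (13.3%), 1 in opposite directions (miR1432) and 1 in the same (miR5084). gma-MIR5368-p5_2ss1TC21TC_1 and its longer copy with the same values were at 211 in L6CG_C, 75.4 in L6WH_C, 337 in L6CG_N and 124 in L6WH_N. The copies are both among the 7 sequences that passed in the same direction. Both WH libraries lay below both CG libraries, as for 54 of all 611 sequences (8.84%), by log2 −1.47 (−1.84 to −1.14) and −1.44 (−1.71 to −1.18). This was the only set of values at a mean of 100 or more that passed in both pairs in the same direction, and it had the lowest p of the common effect (mean −1.45, SE 0.31, limma unadjusted p = 0.0049, adjusted p = 0.997). In DBA Aurora the same sequence was higher in WH progeny, at 71.6 in AuCG_C, 153 in AuWH_C, 100.3 in AuCG_N and 252 in AuWH_N. The difference between genotypes was −2.65 on the log2 scale (limma unadjusted p = 0.0016, adjusted p = 0.478).

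The others that passed in both pairs were at a mean under 100. PC-3p-24935_169, of the sequences that match no known miRNA, was at 94.8 in L6CG_C, 36.6 in L6WH_C, 40.0 in L6CG_N and 3.25 in L6WH_N. Higher in both were 4 sequences of 24 nt. ata-MIR5084-p5_1ss6GA was at 12.9, 43.1, 28.3 and 88.3 in L6CG_C, L6WH_C, L6CG_N and L6WH_N. tae-miR1130b-3p_L-1R+4_1ss13GA was at 9.16, 47.8, 15.6 and 39.3. hvu-miR1436_L+2R+1_1ss4CT was at 11.9, 43.3, 0 and 30.2, at least 6.19-fold higher in L6WH_N with L6CG_N set at 5 reads, the level under which the table lists almost nothing. tae-MIR9654b-p5_1ss21AG was at 0, 19.4, 4.39 and 23.4. Its mean of 11.8 reached the threshold of 10 only through the WH libraries. That holds for hvu-miR1436_L+2R+1_1ss4CT as well. Their higher values in WH progeny are therefore no separate support for a difference. For each sequence of this paragraph the WH and CG libraries did not overlap. This also holds for 117 of all 611 sequences (19.1%, with 63 or 10.3% higher in WH), which passed the same filter. Of all families, miR5084 alone passed as higher in both pairs, with totals of 100.2, 205, 141 and 327 and a mean log2 difference of 1.11 (SE 0.46, limma unadjusted p = 0.026, adjusted p = 0.973).

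miR444, which targets MADS-box genes in monocots, was represented by several forms. osa-MIR444b-p5_1 was at 496 in L6CG_C, 144 in L6WH_C, 754 in L6CG_N and 435 in L6WH_N. Each WH library was below its CG library, by log2 −1.77 and −0.79 (mean −1.28, SE 0.44, limma unadjusted p = 0.032, adjusted p = 0.997). Both WH libraries lay below both CG libraries, as for 8.84% of all sequences. osa-miR444b.1 was at 3142, 1582, 3462 and 3457. It differed with complete nutrients (−0.99) and hardly without N, where its sign turns with scaling (range −0.17 to 0.08). osa-miR444a-3p.2 was at 1293, 1036, 720 and 717. Of the 9 miR444 sequences tested, in 7 sets of values, 5 passed as lower in L6WH_C (7.86% over all sequences) and none passed in L6WH_N. The medians were −1.77 and −0.27, and limma called 0.

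Sequences that end in CCA made up a group with opposite signs. It overlaps the lists above and holds the 3 phase change sequences that passed as higher in L6WH_N. The 16 tested, a list that includes ttu-miR160 and osa-miR160f-5p, named with no added base, had medians of −1.01 and 1.21. Of these 16, 7 passed as lower in L6WH_C (7.86% over all sequences) and 8 as higher in L6WH_N (10.5%). None passed the other way and limma called 0 of the 16. Among them, 10 were longer at the 3′ end than the miRBase miRNA by 2 bases or more (a subset chosen after the values were seen). They are shown with the CCA in capitals, beside the nearest form without it, to let the added bases be seen.
bdi-miR156b-5p_R+4: tgacagaagagagtgagcacaCCA
bdi-miR156b-5p: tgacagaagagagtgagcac
osa-miR171b_R+4: tgattgagccgtgccaatatcaCCA
bdi-miR171b: tgattgagccgtgccaatatc
gma-miR164a_R+3: tggagaagcagggcacgtgcaCCA
ata-miR164b-5p: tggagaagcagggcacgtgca
bdi-miR167c-5p_R+3: tgaagctgccagcatgatctgaCCA
ata-miR167b-5p: tgaagctgccagcatgatctga
Of the 13 such sequences in the table, 11 are held by none of the hairpins listed there. Without the CCA, 9 of the 13 are held by a listed hairpin.

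bdi-miR156b-5p_R+4 was at 20.5 in L6CG_C, 3.59 in L6WH_C, 0 in L6CG_N and 86.4 in L6WH_N, at least 17.7-fold higher in the last than in the third. Its shorter form was at 5089, 3036, 4086 and 5315. osa-miR171b_R+4 was at 22.6, 0, 2.44 and 93.8 while bdi-miR171b was at 2473, 2314, 2139 and 1397, so that without N the longer form was higher in the WH library and the shorter lower. gma-miR164a_R+3 was at 57.1, 25.1, 49.7 and 84.4. All 10 tested were lower in L6WH_C than in L6CG_C and 9 were higher in L6WH_N than in L6CG_N. As a share of the reads of their 9 families, the 13 sequences came to 0.169% in L6CG_C, 0.0972% in L6WH_C, 0.141% in L6CG_N and 0.458% in L6WH_N (Wilson 95% intervals 0.150 to 0.190, 0.0838 to 0.113, 0.124 to 0.161 and 0.434 to 0.484). In DBA Aurora, WH progeny had the lower share in both treatments, at 0.317% in AuWH_C against 0.516% in AuCG_C and 0.681% in AuWH_N against 2.50% in AuCG_N. The bars of these shares show L6WH_N as the highest L6 library and AuCG_N as the highest of all.

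**Figure D4:**
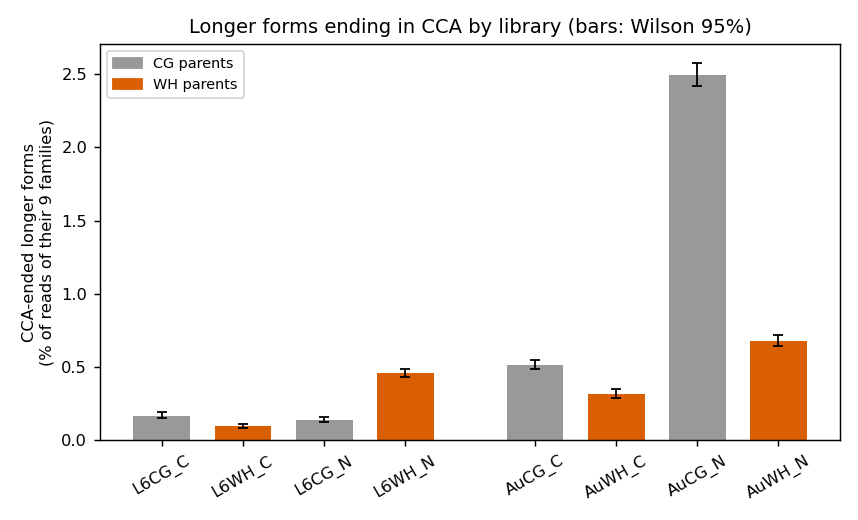
Share of reads of 9 miRNA families in longer forms that end in CCA, in each of the 8 libraries, with CG progeny in grey and WH progeny in orange and bars giving the Wilson 95% interval. The share in L6WH_N is 0.458% against 0.141% in L6CG_N, and in AuWH_N 0.681% against 2.50% in AuCG_N.

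By length, the median difference between WH and CG progeny of L6 was positive for longer sequences and negative for shorter ones. The 182 sequences of 23 to 25 nt (164 sets of values) had median log2 differences of 0.30 with complete nutrients and 0.23 without N. Of the 182, 36.3% were higher in both pairs. The 413 of 20 to 22 nt (389 sets of values) had −0.19 and −0.19, and 9.93% of them were higher in both. The 16 of 18 to 19 nt had −0.22 and −0.69. At equal totals the medians were 0.58 and 0.07 (23 to 25 nt) and 0.09 and −0.35 (20 to 22 nt), so that the longer class stayed above the shorter in both pairs while the sign of the shorter class turned in the first. Among the 45 long sequences at a mean of 100 or more the medians were 0.35 and 0, and among the 137 below 100 they were 0.30 and 0.43. In DBA Aurora the long class had medians of −0.31 and −0.0036. In the share of all counts the classes did not follow this in both treatments, since 23 to 25 nt took 4.98% in L6CG_C and 7.97% in L6WH_C, but 4.43% in L6CG_N and 4.10% in L6WH_N. Depth was higher in both WH libraries of L6, and its part in these medians was not tested.

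**Figure D5:**
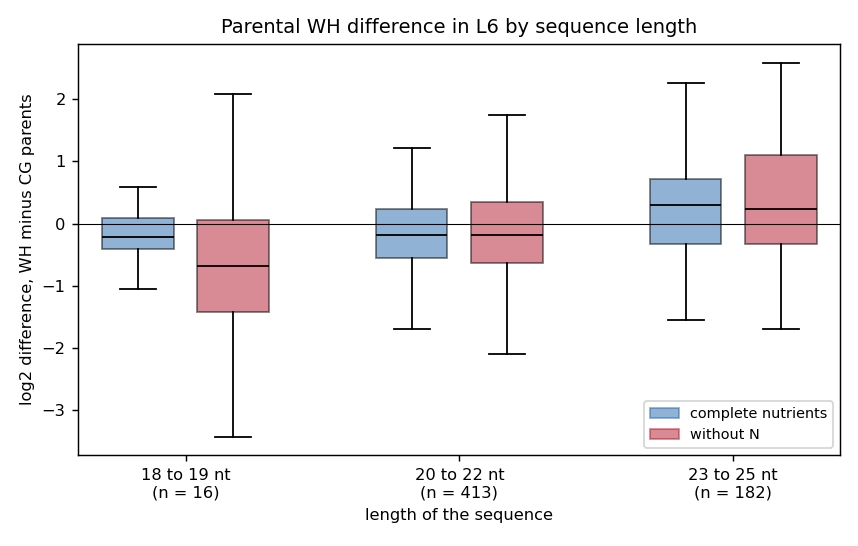
Log2 difference between WH and CG progeny of L6 by sequence length, as boxes of the middle 50% with the median as a line and whiskers to the last value within 1.5 box lengths, for complete nutrients (blue) and without N (red). The medians of the 23 to 25 nt class are 0.30 and 0.23, and those of 20 to 22 nt are both −0.19.

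Much of the long class is MITE-like, from families that resemble small inverted-repeat transposons. The 86 MITE-like sequences of 23 to 25 nt had medians of 0.32 and 0.50, and the 107 of 20 to 22 nt −0.0004 and −0.27. The other 96 sequences of 23 to 25 nt had medians of 0.30 with complete nutrients and only 0.075 without N. Of all 194 MITE-like sequences, in only 148 sets of values, 19 were passed as higher and 5 as lower in L6WH_C. In L6WH_N 18 were passed as higher and 19 as lower. The medians were 0.14 and −0.001, and limma called 0. Sequences with the same values count separately in these numbers. Beside these stand 6.55% higher and 7.86% lower in L6WH_C over all sequences, and 10.5% and 11.0% in L6WH_N. tae-MIR1139-p5_1ss2GA, of 24 nt, was at 99.1, 141, 80.9 and 226 (mean log2 difference 0.99, SE 0.38, limma unadjusted p = 0.046, adjusted p = 0.997). tae-MIR1135-p5_1ss16TA, of 21 nt, had opposite signs, at 2761, 4755, 4720 and 2720. The most abundant long sequence, tae-miR9773_R+1 of a wheat family, was at 12559, 21808, 5402 and 4960, higher in L6WH_C alone.

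Among the 67 sequences that match no known miRNA, 0 were passed as higher and 11 as lower with complete nutrients, and 7 as higher and 6 as lower without N. The counts without N were near the shares over all sequences, 10.5% and 11.0%. With complete nutrients those shares were 6.55% and 7.86%. The 67 sequences had medians of −0.16 and −0.20, and limma called 0. Of the most abundant, PC-5p-627_5996 was at 1889, 1819, 2402 and 2821, and PC-3p-361_12038 at 1290, 1357, 2809 and 2704. PC-3p-527_7580, at 1316, 807, 802 and 1095, had opposite signs.

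The 10 most abundant sequences held 61.2% of counts in L6CG_C, 57.5% in L6WH_C, 62.2% in L6CG_N and 67.8% in L6WH_N, and none of them passed with complete nutrients. tae-miR7757-5p_1ss2TC was at 151676, 120750, 107038 and 129743, and tae-miR9674b-5p at 103959, 76591, 94486 and 113375. For both, the sign of the difference without N turned with scaling, and for the first also that with complete nutrients. Without N only bdi-MIR7757-p5_1ss6AG passed among the 10, at 28283 in L6CG_N and 10741 in L6WH_N (log2 −1.40), against 17420 in L6CG_C and 21567 in L6WH_C. ata-miR9863a-3p followed it in sign (16109, 19447, 26216 and 14028). tae-miR167c-5p (22566, 20969, 27444 and 25189) and ata-miR5168-3p (24125, 20943, 28759 and 27768) differed by under 0.3 in log2 in both pairs.

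bdi-miR5062a_1ss22CA stood apart, at 1453 in L6CG_C and listed at 0 in the other 3 L6 libraries, at least 405-fold lower in L6WH_C. It reached the mean of 10 through L6CG_C alone. It is also listed at 0 in all DBA Aurora libraries. tae-miR5062-5p, of the same seed, was at 5409, 3659, 5820 and 8276.

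The parental difference was also set against that of DBA Aurora. limma called 0 of 611 sequences for a difference between the genotypes (0% of those tested; 19 at an unadjusted p under 0.05, smallest adjusted p 0.478). After gma-MIR5368-p5_2ss1TC21TC_1 the lowest p had osa-miR393a_L+1R+2, which was at 5.39, 5.03, 17.6 and 14.9 in L6 and 11.6, 0, 177 and 16.3 in AuCG_C, AuWH_C, AuCG_N and AuWH_N. The others of the 5 lowest, PC-3p-75897_61, bdi-miR171a_R+2 and gma-MIR5368-p3_2ss1AT18CA, were also at a mean under 100 in L6. miR1432 was higher in WH progeny of DBA Aurora in both treatments, with sbi-miR1432 at 113, 2009, 320 and 510 in the same order. The genotype difference of sbi-miR1432 was −3.69 on the log2 scale (limma unadjusted p = 0.160, adjusted p = 0.928), and that of the miR1432 family total was −2.96 (limma unadjusted p = 0.0081, adjusted p = 0.284 over 105 families). At the same adjusted p, miR9773 (1.56, limma unadjusted p = 0.00638) and miR399 (2.01, limma unadjusted p = 0.00640) had lower p. In DBA Aurora both were lower in WH progeny, by −1.56 and −0.88 for miR9773 and −0.74 and −1.77 for miR399 with complete nutrients and without N.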

How the data were processed

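Small RNA libraries of 8 conditions (1 library each, RNA of 6 plants pooled in equal amounts, TruSeq Small RNA kit, 50-nt single reads) were processed by the authors with ACGT101-miR, using miRBase and, for genome positions, the Svevo.v1 assembly. The paper names an Illumina HiSeq and the labels an Illumina NovaSeq. The deposited signal is a normalised reads count per miRNA entry, and the sources used here do not give the rule behind each library's factor. The table has 1532 entries under 1508 names, reduced here to 1473 distinct sequences, each taken once. Between 94.9 and 97.9% of low values were whole multiples (within 0.02) of a step taken as 1 read, too few for a count model. Total normalised counts of the L6 libraries were 1308190 (L6CG_C), 1072420 (L6WH_C), 1334570 (L6CG_N) and 1497350 (L6WH_N). The table lists almost nothing under 5 reads. Intervals (exact binomial for ratios, Wilson for shares, 95%) use estimated reads and cover counting error only.

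limma 3.58.1 in R 4.3.3 (2-sided, empirical Bayes with a mean trend) was fitted to log2 of the normalised count plus 1 in the 8 libraries, with genotype, progeny treatment within genotype and parental treatment within genotype (6 coefficients, 2 residual degrees of freedom), and Benjamini-Hochberg adjustment over all 611 sequences. A fold change on this scale understates the change of low sequences. Family totals sum distinct sequences by the number after miR or MIR. Library pairs were compared by Fisher's exact test on rounded values with scipy 1.17.1. The fit and the Fisher rule were tested on simulated data. Alternatives were other pseudocounts, filters, scalings, variance models and sets of libraries.

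The members, lists and tests were chosen with earlier results of these data known. No sequence passed limma, so the named sequences are those at a mean of 100 or more that passed the library thresholds in both pairs (in 1 direction, up to 10 each way, or in opposite directions, up to 5 each way), the 5 of lowest p of the genotype difference, the 10 most abundant, and up to 4 most abundant of each list. In this choice of names, sequences with identical values count as 1, families follow the same rule, and not every most abundant list member is printed. All other names were chosen after their values were seen. Lists by family number are nutrient and nitrogen, copper and redox, auxin, phase change, leaf, meristem and flower, miRNA pathway, MADS-box, calcium, MITE-like and Triticeae families. Of the phased siRNA triggers no sequence reached the mean of 10. Hairpin positions are listed on genome records whose chromosome names were not used here, and none is printed. Some sequences share all values (544 distinct sets among 611), and reads of near-identical forms may be split between entries or shared by them. The raw reads were not analysed here.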

Additional observations from a re-analysis of the deposited data

Results flagged for a closer look

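Sequences at a mean of 100 or more whose L6 libraries passed the Fisher thresholds in opposite directions in the 2 progeny treatments are given here with the log2 difference with complete nutrients minus that without N. Each rests on 1 library a condition. The values were −6.29 for sbi-miR1432, −5.71 for osa-miR1432-5p_L-1R+1, −4.77 for ata-miR1432-5p_L+1R-1, −2.10 for bdi-miR169c-3p_L+1_2ss6GA13CT, 2.79 for osa-miR827_1ss1TG, 2.62 for tae-MIR9774-p5 and 2.26 for lus-miR159b_R+1_1ss21CT. In the test of this difference, added after the data were seen, the limma unadjusted p was 0.079, 0.078, 0.076, 0.067, 0.126, 0.237 and 0.020 in that order, and none passed after adjustment over 611 sequences (smallest adjusted p 0.443).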

How the results depend on the processing

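The count of sequences that limma called for a common parental effect in L6 was 0 in all 23 settings (3 to 90 at an unadjusted p under 0.05), the count of families 0 in all 18 (0 to 8), and the count of sequences that differed between genotypes 0 in all 16 (18 to 41). Leaving out any 1 library gave 0 in each of these. The difference between the L6 pairs was called for 0 sequences in 7 of 8 settings and for 49 after quantile normalization (33 higher and 16 lower without N); why was not tested. With 100 or more required in 1 of the 2 libraries, the Fisher thresholds passed 27 sequences with complete nutrients and 41 without N, in place of 88 and 131, and with every sequence above 0 they passed 462 and 337. The sequences compared numbered 250 and 235, and 1229 and 1257, and the cause was not tested. At equal totals the split of higher and lower was 82 and 32 with complete nutrients and 59 and 92 without N, in place of 40 and 48, and 64 and 67, and the medians of all sequences moved to 0.20 and −0.21. No named pair difference that passed the thresholds changed sign under another scaling. The labels give no replicate numbers, so the only pairing used is that by progeny treatment. Depth limits the low sequences: 5 reads are worth 3.25 to 5.39 in the L6 libraries.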
